A study of Mus musculus with 8 samples.

Results

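The Slc25 genes encode the carriers that move metabolites across the inner mitochondrial membrane, and their RNA was followed while mouse embryonic stem cells were turned into heart muscle cells in culture. Members were taken by symbol, as every listed gene named Slc25a followed by a number, which gave 37 of the 13540 genes measured. All cells were of the 129/Ola strain. RNA was taken on day 0 from embryonic stem cells (ESC), on day 4 from mesodermal cells (MES), on day 5.3 from cardiac precursors (CP) and on day 10 from cardiomyocytes (CM), and the labels give 2 libraries for each. Where 4 values of a gene follow each other below, they are in this order. Differentiation started in free-floating clusters (embryoid bodies) in serum-free medium. The clusters were taken apart and formed again with BMP4, Activin A and VEGF, and the cells were later plated with FGF10, basic FGF and VEGF. No genetic change, sort or selection is named in the labels for any stage.

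Each gene had 1 value per stage, in RPKM (reads divided by the length of the gene model in kilobases and by sequencing depth). RPKM is a level per length, so levels of different genes can be set side by side. The 2 libraries of a stage had no values of their own. Every difference below therefore lacks a replicate check and carries neither an SD nor a p-value. Differences are on the log2(RPKM + 1) scale, which understates those of low genes, and a difference counts as such from 2-fold on this scale. A gene had to reach about 1 RPKM at some stage to be listed (the lowest highest-stage value of any gene was 1.00017 RPKM). A carrier that is low throughout was thus not analysed here, and a low one is present only through its highest stage, as with the 5 members that stood under 1 RPKM at 1 stage or more.

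Carriers of this family exchange one small molecule for another, such as ADP for ATP, or let a substrate in together with protons, and so link the matrix to the cytosol. Heart muscle draws most of its ATP from mitochondria. Its cells are known for a high content of the ADP/ATP carrier Slc25a4, of the phosphate carrier Slc25a3 and of carriers that bring in reducing equivalents and fatty acids. Several relatives occur as pairs that move the same substrate in different tissues. Such pairs are compared below, along with pairs of relatives whose substrates differ.

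Depth, estimated from the steps between low values, lay between 62.0 and 88.5 M reads per stage (1 M is 1000000), at which 3 reads on a 2 kb gene model equal 0.0169 to 0.0242 RPKM. The summed level of 4 pluripotency markers was 1298, 84.5, 9.37 and 0.420 RPKM over the 4 stages, that of 3 mesoderm markers peaked in MES at 275 RPKM, and that of 4 contractile genes was 7.70, 7.27, 1008 and 7877 RPKM. These lists were highest at the stage of their label. The 3 cardiac precursor markers summed to 1.09, 14.6, 130.1 and 211 RPKM and were highest in CM, where Nkx2-5 and Tbx5 stood above CP, and only Isl1 of the 3 was highest in CP. Cultures of ESC, CP and CM also held RNA of markers of other cell types. In CP, 7 erythroid markers summed to 237 RPKM and 5 endothelial markers to 248 RPKM, against 4.62 and 64.0 RPKM in MES. Kdr alone gave 63.2 RPKM of the endothelial sum in MES and was lower in CP (53.4 RPKM), while the other 4 were higher in CP. The 4 fibroblast and matrix markers in the table summed to 239 RPKM in CM, against 25.9 RPKM in CP, and 4 smooth muscle markers, which young cardiomyocytes also express, to 2429 RPKM, against 566 RPKM. In ESC the smooth muscle markers summed to 273 RPKM and the fibroblast and matrix markers to 16.8 RPKM, against 6.66 and 1.29 RPKM in MES. The part of other cell types in the carrier values was not tested. In bulk RNA, fewer cells of a type and less RNA per cell cannot be told apart.

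The sequences just before the start of 3 carriers are shown because the pair comparisons below turn on them: Slc25a4 and Slc25a23, which were highest in CM, and Slc25a5, the close relative of Slc25a4 that was highest in ESC. Each is the 250 bases upstream of the start in RefSeq (build GRCm38.p6), read 5′ to 3′ on the gene's strand. The windows are chr8:46211063-46211312 (minus strand) for Slc25a4, chrX:36795347-36795596 (plus strand) for Slc25a5 and chr17:57059864-57060113 (minus strand) for Slc25a23, which has 2 listed starts, of which the first is shown. Capitals mark matches on either strand to 5 short motifs of regulators of mitochondrial and housekeeping genes.
Slc25a4: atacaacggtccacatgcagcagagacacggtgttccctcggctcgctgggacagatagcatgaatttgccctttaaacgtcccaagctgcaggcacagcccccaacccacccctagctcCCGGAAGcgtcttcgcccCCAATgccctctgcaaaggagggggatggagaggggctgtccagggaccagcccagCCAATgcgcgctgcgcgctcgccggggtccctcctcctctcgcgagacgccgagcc
Slc25a5: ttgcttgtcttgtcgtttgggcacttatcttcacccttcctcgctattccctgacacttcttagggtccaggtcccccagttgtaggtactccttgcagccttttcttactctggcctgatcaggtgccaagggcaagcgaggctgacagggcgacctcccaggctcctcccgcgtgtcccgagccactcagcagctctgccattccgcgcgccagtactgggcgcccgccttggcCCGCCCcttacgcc
Slc25a23: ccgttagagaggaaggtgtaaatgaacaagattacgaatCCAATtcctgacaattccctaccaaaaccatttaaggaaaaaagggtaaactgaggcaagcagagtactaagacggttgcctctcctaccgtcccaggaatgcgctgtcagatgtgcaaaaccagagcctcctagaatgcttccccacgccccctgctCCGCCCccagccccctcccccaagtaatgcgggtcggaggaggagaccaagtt
The Slc25a4 window held the ETS letters CCGGAAG and the NF-Y box CCAAT at 2 places. In Slc25a5 the only match was the SP1 box GGGCGG on the reverse strand, and in Slc25a23 there were 1 NF-Y box and 1 reverse SP1 box. Over the 29 of 37 members with an entry, the ETS letters occurred in 5 (17.2%), the NF-Y box in 14 (48.3%) and the SP1 box in 20 (69.0%). Over all 32851 promoter windows of this length the shares were 6.91%, 33.8% and 32.7%. The NRF1 core TGCGCA occurred in 3 members and in 6.43% of all windows. AAGGTCA, the half-site read by oestrogen-related receptors, occurred in 0 members and in 4.08% of all windows. Members were counted by their first listed start only. The full set of windows holds every listed start and is not limited to the genes measured here. These shares are therefore not like for like, and their difference was not tested. None of these motifs contains another, though matches may overlap, and a match describes letters only.

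Over the whole course, most carriers peaked at the ends and many had their low point in the middle stages. Of the 37 members, 19 had a range of at least 2-fold over the 4 stages (51.4%), against 63.2% of all genes. The highest value was in ESC for 17 members (30.5% of all genes), in MES or CP for 10 (39.8%) and in CM for 10 (29.8%). Slc25a31, Slc25a35, Slc25a40 and Slc25a43 are listed only through ESC and Slc25a29 only through MES. Their highest stage was thus fixed by the listing. The lowest value was in ESC for 11 (32.5%), in MES for 9 (17.4%), in CP for 10 (10.7%) and in CM for the other 7 (39.4%). The lowest point thus fell in MES or CP for 19 of 37 members (51.4%), against 28.1% of all genes. Both shares were counted without a margin, so they include near ties. Slc25a32 is among the 19 through a CP value of 1.786 RPKM, hardly below its CM value of 1.801 RPKM. Slc25a31 is among them on 2 reads in MES, where CM had 3 reads. With their lowest value in MES or CP, only Slc25a12 and Slc25a20 were at least 2-fold below both ESC and CM, against 3.32% of all genes. A level that was higher at each later stage was seen in Slc25a4 and Slc25a11 (11.8% of all genes), and one that was lower at each later stage in Slc25a1, Slc25a15, Slc25a35 and Slc25a38 (16.5%).

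Nucleotide and phosphate carriers came first in level. Slc25a4 (ENSMUSG00000031633), the ADP/ATP carrier known from heart and skeletal muscle, stood at 104, 135, 203 and 455 RPKM over the 4 stages. Its rank among the 13540 genes was 374 in ESC and 47 in CM. CM exceeded CP by 1.16 and ESC by 2.12 on the log2 scale (2.24-fold and 4.39-fold in RPKM), and each stage lay above the one before. The difference from CP was 0.71, under 2-fold, when the stages were quantile normalized. Slc25a5 (ENSMUSG00000016319), the ADP/ATP carrier known from dividing cells, stood at 153, 81.9, 43.9 and 66.6 RPKM. It was lower at each stage up to CP, where Slc25a4 was higher, and both were higher in CM than in CP, Slc25a5 by 0.59. CM minus ESC was -1.19 on the log2 scale (-0.97 when quantile normalized), with the lowest level in CP. Summed levels of 5 proliferation markers were 586, 507, 329 and 49.5 RPKM over the same stages, and their part in the Slc25a5 values was not tested. The longest Slc25a5 transcript shares 66.3% of its 32-base words with transcripts of 12 other genes, pseudogenes among them, and Slc25a4 shares 0%. The Slc25a5 level is therefore uncertain, and with it the ratio below, since how the authors counted shared reads is not known here.

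The pair exchanged places. The ratio of Slc25a4 to Slc25a5 was 0.675, 1.65, 4.63 and 6.83 over the stages. Slc25a4 gave 40.1%, 62.2%, 82.2% and 87.2% of the summed ADP/ATP carrier RPKM. That sum was 258, 217, 247 and 522 RPKM, so ESC, MES and CP lay close together while the make-up shifted, and the total was higher in CM. Slc25a31, the ADP/ATP carrier known from the testis, added 1.34 RPKM in ESC (156 reads, 95% Poisson interval 1.14 to 1.57 RPKM). Its later values were 0.0209, 0.0499 and 0.0219 RPKM, on 2, 5 and 3 reads, with upper limits of 0.0754, 0.116 and 0.0640 RPKM. The gene is listed only through its ESC value, so its lower level afterwards is a description. Such intervals cover counting error only.

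**Figure D1:**
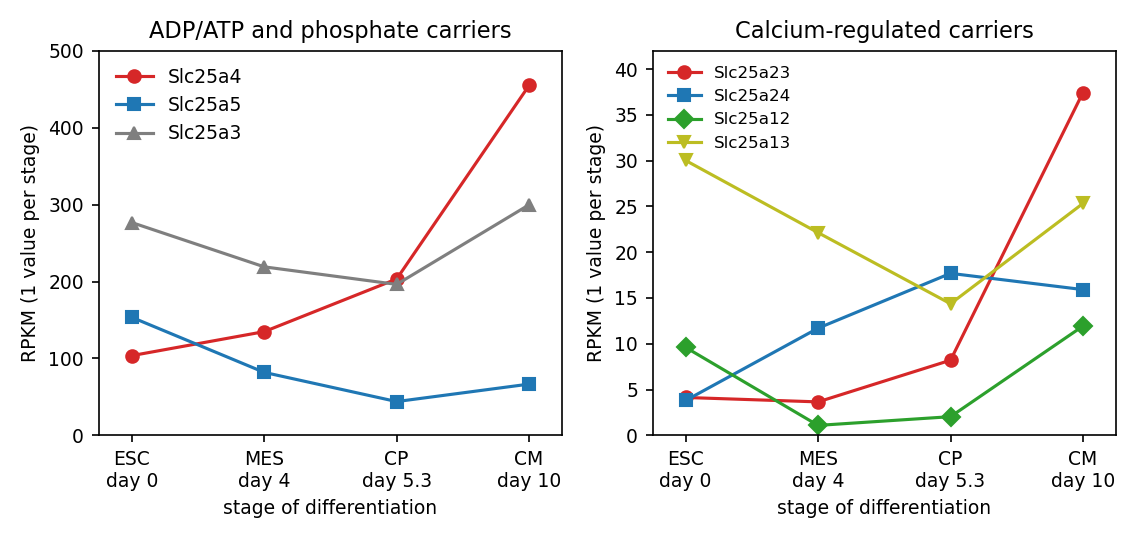
RPKM by stage (1 value per stage, linear axes from 0), on the left for the ADP/ATP carriers Slc25a4 and Slc25a5 and the phosphate carrier Slc25a3, on the right for the calcium-regulated carriers Slc25a23, Slc25a24, Slc25a12 and Slc25a13. Slc25a4 passes Slc25a5 by MES and Slc25a3 by CP, and Slc25a23 passes Slc25a24 in CM only (37.4 against 15.9 RPKM).

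Slc25a3 (ENSMUSG00000061904) brings in the phosphate that ATP synthase uses. It stood at 277, 219, 196 and 299.8 RPKM, a range of 1.53-fold, with its low point in CP. It was the most abundant carrier in ESC and MES, and Slc25a4 stood above it in CP and CM. Slc25a3, Slc25a4 and Slc25a5 together held 57.1%, 55.6%, 57.0% and 66.8% of the summed RPKM of all 37 members. That total was 934, 784, 778 and 1229.9 RPKM, which is 0.353%, 0.308%, 0.323% and 0.473% of the RPKM of all genes. Without these 3 genes the sum was 401, 348, 335 and 409 RPKM, so ESC and CM were near each other and the higher total in CM lay mainly in Slc25a4.

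**Figure D2:**
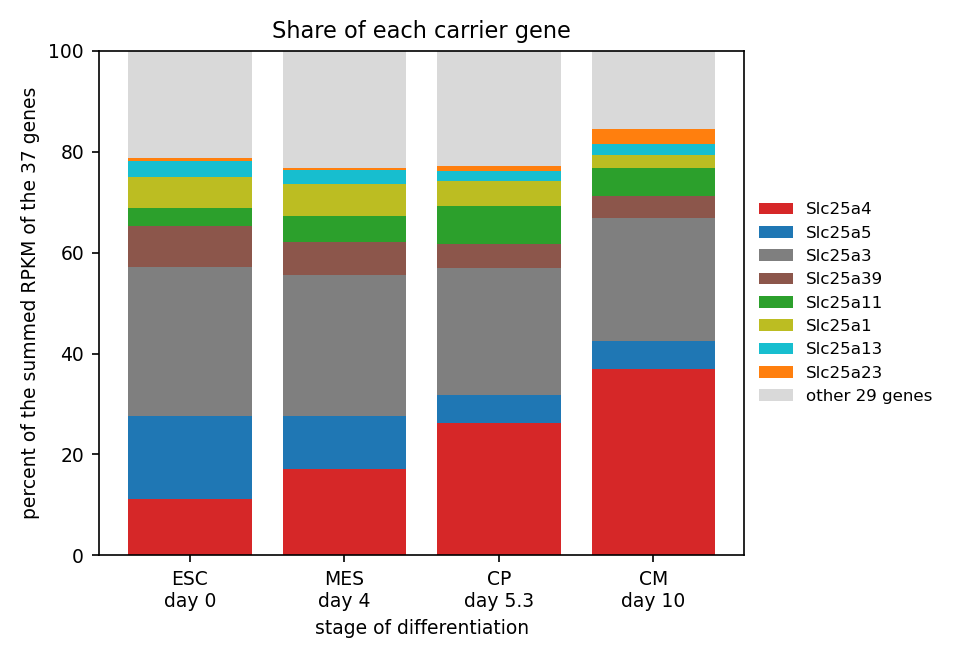
Share of each of 8 carrier genes, and of the other 29 together, in the summed RPKM of the 37 Slc25a genes (percent, stacked bars) at each stage. The Slc25a4 share is 11.1% in ESC and 36.99% in CM, while that of Slc25a5 is 16.4% in ESC and 5.42% in CM.

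Carriers of ATP-Mg against phosphate, which are switched on by cytosolic calcium and set the adenine nucleotide content of the matrix, changed in make-up as well. Slc25a23 (ENSMUSG00000046329) stood at 4.13, 3.65, 8.21 and 37.4 RPKM. CM was 2.06 above CP and 2.90 above ESC on the log2 scale (4.56-fold and 9.06-fold in RPKM), and the difference from ESC was the largest of any member in that comparison. Slc25a24 (ENSMUSG00000040322) stood at 3.81, 11.7, 17.7 and 15.9 RPKM. It was higher in MES than in ESC by 1.40, and CP and CM lay above MES. Slc25a25, at 6.93, 5.44, 5.05 and 5.44 RPKM, varied by 1.37-fold. The 3 genes summed to 14.9, 20.8, 30.9 and 58.8 RPKM, and a different one led in turn. Slc25a25 was highest of the 3 in ESC, Slc25a24 in MES and CP, and Slc25a23 in CM. The ratio of Slc25a23 to Slc25a24 was 1.09 in ESC, where the 95% counting interval of 0.975 to 1.21 includes 1, then 0.312 in MES, 0.464 in CP and 2.35 in CM. That of Slc25a25 to Slc25a24 was 1.82, 0.465, 0.286 and 0.342.

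**Figure D3:**
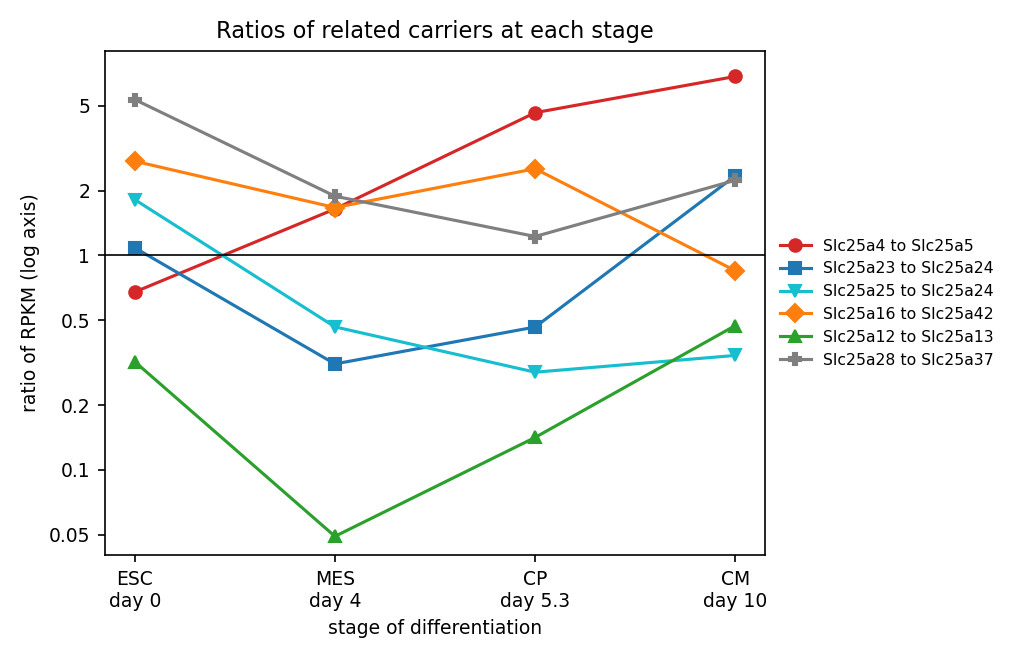
Ratio of RPKM between related carriers at each stage (log axis, 1 value per stage), with a line at 1 where both genes stand at the same level. Slc25a4 to Slc25a5 crosses the line upwards between ESC and MES, Slc25a25 to Slc25a24 crosses it downwards there, and Slc25a16 to Slc25a42 crosses it between CP and CM.

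Of 18 pairs of relatives, 14 had both genes in the table, and 4 pairs had a ratio above 1 at 1 stage and below 1 at another. The pairs that crossed 1 were the ADP/ATP pair, both calcium-regulated pairs just described, and Slc25a16 to Slc25a42. Both calcium-regulated pairs contain Slc25a24, so these crossings are not independent. The other 10 kept the same leader at every stage. Among these, Slc25a39 exceeded Slc25a40 by between 44.6 and 94.9 times, Slc25a20 exceeded Slc25a29 by between 5.72 and 60.4 times, and the ratio of Slc25a10 to Slc25a11 lay between 0.0587 and 0.341.

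Amino acid carriers showed the deepest low point. Slc25a12 (ENSMUSG00000027010) and Slc25a13 (ENSMUSG00000015112) exchange aspartate for glutamate under control of calcium and belong to the malate-aspartate shuttle. Slc25a12, the form known from muscle and brain, stood at 9.60, 1.09, 2.04 and 11.9 RPKM. It was 2.35 lower in MES than in ESC and 2.09 higher in CM than in CP on the log2 scale, so that CM was again near ESC. Slc25a13, the form known from liver, stood at 30.02, 22.1, 14.4 and 25.3 RPKM, with a shallower low point in CP. It remained the higher of the pair. The ratio of Slc25a12 to Slc25a13 was 0.320, 0.0490, 0.142 and 0.471, and their sum 39.6, 23.2, 16.4 and 37.3 RPKM. Enzymes of the shuttle were higher in CM too, with 3 of 4 at least 2-fold above CP (median 1.28), against 11.3% of all genes, and 1 of 4 above ESC (median 0.35), against 22.2%. Got1, the cytosolic aspartate aminotransferase, stood at 77.6 RPKM in CM, against 20.2 RPKM in CP, and Mdh1, the cytosolic malate dehydrogenase, at 142 RPKM, against 51.4 RPKM.

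The carriers for single amino acids went the other way or varied little. Slc25a15 exchanges ornithine for citrulline and stood at 13.8, 9.87, 7.14 and 4.02 RPKM, lower at each stage and 1.56 lower in CM than in ESC. Slc25a38 brings in glycine for the first step of heme synthesis. It stood at 10.4 RPKM in both ESC and MES, while CP had 5.13 RPKM and CM had 2.66 RPKM, 1.64 below ESC. The summed erythroid markers were highest in CP and lower in CM, and their part in the Slc25a38 values was not tested. Slc25a22, a glutamate carrier, with 7.38, 12.5, 8.40 and 9.54 RPKM, and Slc25a44, a carrier of branched-chain amino acids, with 6.69, 11.8, 8.79 and 9.99 RPKM, were both highest in MES and under 2-fold throughout. Slc25a29, a carrier of basic amino acids, stood at 0.428, 1.08, 0.367 and 0.303 RPKM and is listed only through its MES value.

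Among carriers of di- and tricarboxylates the members diverged. Slc25a11 (ENSMUSG00000014606), which exchanges oxoglutarate for malate and is the other carrier of the malate-aspartate shuttle, stood at 33.7, 40.3, 59.3 and 67.5 RPKM. It was higher at each stage, and CM was 0.98 above ESC, just short of 2-fold. Slc25a1, which exports citrate for fatty acid synthesis, ran in the opposite direction with 57.3, 49.5, 38.5 and 32.7 RPKM. The CM level was 0.79 below ESC. Acly, the enzyme that splits the exported citrate, stood at 56.9 RPKM in CM, against 102 RPKM in CP, while citrate synthase (Cs) stood at 157 RPKM, against 52.05 RPKM. Of 5 genes of the citrate route, 4 were at least 2-fold higher in CM than in CP and 0 lower (median 1.45). Over all genes the shares were 11.3% and 12.8%. Among the 4 is Mdh1, which was also counted above with the shuttle enzymes. Slc25a10, a carrier of malate and succinate against phosphate, had a passing peak, with 4.06, 13.8, 9.56 and 3.96 RPKM. MES was 1.54 above ESC, and CM was 1.09 below CP, or 0.98 when each stage was centred on its median.

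Slc25a20 (ENSMUSG00000032602), the single carrier through which acylcarnitines enter the matrix, stood at 14.6, 6.20, 9.99 and 18.3 RPKM. It was 1.12 lower in MES than in ESC and 0.82 higher in CM than in CP, so the CM level lay under 2-fold above CP. In CM against CP, Cpt1b, Cpt1a and Crat of the carnitine shuttle differed more than Slc25a20. Cpt2 (0.84) and Cpt1c (0.75) differed about as much as Slc25a20. Cpt1b, the muscle form of the enzyme that makes acylcarnitines, stood at 93.1 RPKM in CM, against 16.7 RPKM in CP. Cpt1a, known as the liver form, stood at 21.2 RPKM in CM, against 0.164 RPKM in CP, and at 0.177 RPKM in MES, against 9.58 RPKM in ESC, so both it and Slc25a20 were low in the middle stages. Of 5 genes of the carnitine shuttle, 3 were at least 2-fold higher in CM than in CP and 0 lower (median 1.46), against 11.3% and 12.8% of all genes.

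For the 10 cofactor carriers with an Slc25a symbol, MES minus ESC ran from -0.97 to -0.09 with a median of -0.65. On this scale 0 of 10 reached 2-fold, where 11.1% of all genes were higher and 11.2% lower. At a pseudocount of 0.5, Slc25a33 (-1.06) and Slc25a40 (-1.09) passed 2-fold. Over all genes the median was 0.05, and 53.03% lay above 0. Later stages separated them. Slc25a42 (ENSMUSG00000002346), which imports coenzyme A, stood at 1.35, 1.20, 1.08 and 4.26 RPKM, with CM 1.34 above CP and 1.16 above ESC. Slc25a16, a relative of Slc25a42 tied to coenzyme A, stood at 3.71, 2.01, 2.74 and 3.62 RPKM. The ratio of Slc25a16 to Slc25a42 was 2.75, 1.67 and 2.54 in ESC, MES and CP and 0.848 in CM (95% counting interval 0.781 to 0.921).

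Among the other cofactor carriers, Slc25a32, Slc25a33 and Slc25a26 had their highest level in ESC and remained lower afterwards. Slc25a32, a carrier of folate or FAD, stood at 5.79, 3.30, 1.79 and 1.80 RPKM, and Slc25a33, a carrier of pyrimidine nucleotides, at 7.65, 3.42, 2.066 and 2.44 RPKM. In CM they were 1.28 and 1.33 below ESC. Slc25a26, which imports the methyl donor S-adenosylmethionine, stood at 6.24, 4.08, 2.99 and 3.22 RPKM and was 0.78 below ESC in CM. None of these 3 reached 2-fold in MES against ESC, though Slc25a33 passed it at a pseudocount of 0.5 (-1.06). Of 6 enzymes of mitochondrial folate use, 4 stood at least 2-fold below ESC in MES and 1 above (median -1.33), against 11.2% and 11.1% of all genes. In CM, 3 of 6 stood below ESC and 0 above, against 23.4% and 22.2%. Slc25a36, the other pyrimidine nucleotide carrier, was at 14.8, 8.49, 11.8 and 15.3 RPKM and thus near its ESC level in CM. Its longest transcript shares 13.5% of its 32-base words with Gm13217, and that of Slc25a20 shares 15.4% with transcripts of other genes, so both levels are less certain than most. Slc25a39, which imports glutathione, was the fourth most abundant carrier in ESC and MES and stood at 76.0, 50.8, 36.3 and 55.0 RPKM. Its relative Slc25a40 stood at 1.70, 0.536, 0.812 and 0.917 RPKM and is listed only through its ESC value. Slc25a17, a peroxisomal member, varied least among the abundant cofactor carriers, at 22.6, 19.7, 22.3 and 14.5 RPKM.

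Both iron carriers were present at all stages. Slc25a28, mitoferrin-2, which most cells use, stood at 25.8, 15.1, 14.4 and 16.8 RPKM. Slc25a37, mitoferrin-1, which developing red cells use, stood at 4.84, 8.0, 11.8 and 7.49 RPKM and peaked in CP. The ratio of Slc25a28 to Slc25a37 was 5.33, 1.89, 1.23 and 2.24, so mitoferrin-2 led throughout and by least in CP. In CP all 7 erythroid markers in the table were at least 2-fold above MES, where 8.91% of all genes were. In CM, 6 of 7 were at least 2-fold lower than in CP, where 12.8% of all genes were. Their summed level was 1.88, 4.62, 237 and 14.4 RPKM over the stages, and Hbb-bh1 and Hba-x, embryonic globin genes, were listed at 0 in ESC. The part of erythroid cells in the Slc25a37 value was not tested. Of 8 genes of iron use in mitochondria, only Alas2, the erythroid enzyme of heme synthesis, differed by 2-fold in CP against MES (3.45 RPKM in CP, against 1.19 RPKM in MES) and in CM against CP (0.367 RPKM in CM, against 3.45 RPKM in CP). Over all genes, 8.91% were higher and 3.91% lower in CP against MES, and 11.3% and 12.8% in CM against CP. Alas2 is also 1 of the 7 erythroid markers.

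Members near the uncoupling proteins changed little. Slc25a30 stood at 4.22, 6.09, 7.42 and 6.93 RPKM, Slc25a27 at 2.51, 4.56, 4.47 and 3.67 RPKM and Slc25a14 at 1.38, 2.65, 1.99 and 1.63 RPKM. All 3 were higher in MES than in ESC, by 0.44 to 0.66, and under 2-fold at every comparison. Slc25a46, which lies in the outer membrane and takes part in mitochondrial fission and fusion, varied by 1.48-fold, at 9.37, 11.8, 11.7 and 13.8 RPKM.

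Members of less settled role were low. Slc25a47, known from liver, stood at 1.16, 4.03, 3.28 and 1.56 RPKM, and MES was 1.22 above ESC. In GENCODE M21 it lies next to Slc25a29 on chromosome 12. Both had their highest value in MES, which for Slc25a29 was fixed by the listing. Slc25a43 stood at 1.66 RPKM in ESC (222 reads, interval 1.44 to 1.89 RPKM) and at 0.172, 0.234 and 0.317 RPKM in the later stages, on 19, 27 and 50 reads. It neighbours Slc25a5 on chromosome X, and both were highest in ESC, which for Slc25a43 was fixed by the listing. Slc25a35 stood at 1.15, 0.383, 0.330 and 0.139 RPKM, on 218, 60, 54 and 31 reads. Its intervals were 0.0942 to 0.197 RPKM in CM and 0.999 to 1.31 RPKM in ESC. Slc25a35 and Slc25a43 are listed only through ESC, so their lower levels afterwards are a description.

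Taken by step, the members' 2-fold differences lay in the first and last steps. Over all genes, too, the shares were smallest in the middle step. In MES against ESC, 3 members were at least 2-fold higher (Slc25a10, Slc25a24 and Slc25a47), where 11.1% of all genes were, and 4 were lower (Slc25a12, Slc25a20, Slc25a31 and Slc25a43), where 11.2% were. Of the lower ones, Slc25a31 and Slc25a43 are listed only through ESC. At a pseudocount of 0.1 the lower members were 7, against 15.5% of all genes, and with stages scaled to 1000000 also 7, against 13.98%. The members' median was -0.30, against 0.05 over all genes, and 13 of 37 lay above 0, against 53.03% of all genes. In CP against MES, 0 members were at least 2-fold higher and 0 lower, against 8.91% and 3.91% of all genes. Slc25a23 came nearest at 0.98, which passed 2-fold at a pseudocount of 0.5 or 0.1. At a pseudocount of 0.1, 1 member was higher and 2 were lower, against 13.95% and 6.96% of all genes. With stages scaled to 1000000, 1 was higher and 1 lower, against 13.4% and 5.29%. The members' median was -0.06, against -0.03 over all genes.

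In CM against CP, 5 members were at least 2-fold higher (among them Slc25a4, Slc25a12, Slc25a23 and Slc25a42), where 11.3% of all genes were, and 1 was lower (Slc25a10), where 12.8% were. The split was 5 higher and 2 lower when stages were scaled to sum to 1000000, and 5 and 0 with each stage centred on its median. The members' median was 0.09, against -0.15 over all genes, and 23 of 37 lay above 0, against 41.4% of all genes. After scaling to 1000000 the medians were 0.07 for members and -0.29 for all genes. They were 0.21 and -0.06 with quantile normalization, and 0.21 and -0.03 with centring. In CM against ESC, 5 were at least 2-fold higher (among them Slc25a4, Slc25a23, Slc25a24 and Slc25a42), where 22.2% of all genes were, and 7 were lower (Slc25a5, Slc25a15, Slc25a31, Slc25a32, Slc25a33, Slc25a38 and Slc25a43), where 23.4% were. Of the lower ones, Slc25a31 and Slc25a43 are again listed only through ESC. Both medians were -0.03, and among genes that reach 3 RPKM they were 0.12 for members and -0.04 for all genes. As shares of the 37 members these counts are 8.11% and 10.8% in MES against ESC, 13.5% and 2.70% in CM against CP, and 13.5% and 18.9% in CM against ESC, each higher then lower, and they say nothing particular of the carriers. The comparisons share stages and are not independent. Members closest to the limit were, in MES against ESC, Slc25a47 (1.22) inside and Slc25a44 (0.73) outside on the higher side, and Slc25a20 (-1.12) and Slc25a33 (-0.97) on the lower. In CM against CP they were Slc25a4 (1.16) and Slc25a20 (0.82), and Slc25a10 (-1.09) and Slc25a47 (-0.74). In CM against ESC, Slc25a11 (0.98) lay just outside on the higher side, and Slc25a43 (-1.01) and Slc25a35 (-0.91) were closest on the lower.

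**Figure D4:**
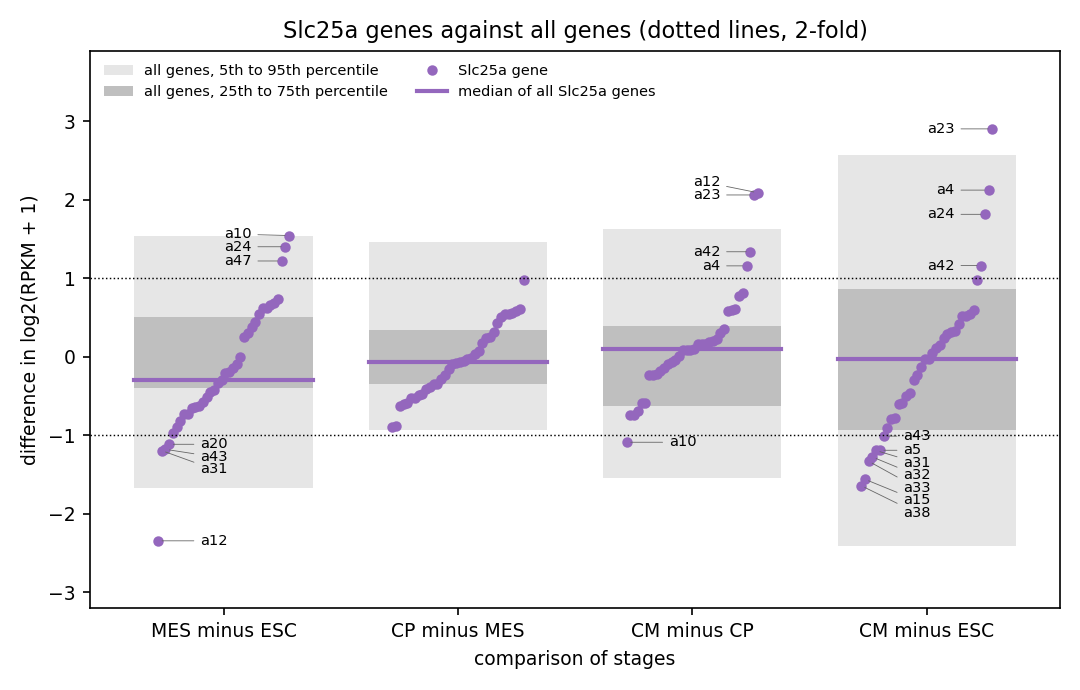
Difference in log2(RPKM + 1) of 36 of the 37 Slc25a genes (points, in order of size within a comparison) for 4 comparisons of stages, over bands that hold the middle of all 13540 genes; dotted lines mark 2-fold and names drop the prefix Slc25. Slc25a12 is the lowest point in MES minus ESC (-2.35), 0 points pass the lines in CP minus MES, and Slc25a23 is the highest point in CM minus ESC (2.90).

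The machinery around the carriers was compared at the last step, CM against CP, where 11.3% of all genes were at least 2-fold higher and 12.8% lower. Of 8 genes that import carriers into the inner membrane, such as Timm22 and the Tim chaperones, 0 were at least 2-fold higher or lower (median -0.11). Of 7 outer membrane channels and partners of ADP/ATP exchange, 1 was higher and 0 lower (median 0.47). That gene was Vdac1, the channel through which ADP and ATP cross the outer membrane, at 266 RPKM in CM, against 117 RPKM in CP. The pyruvate carrier is no Slc25 member. Of its 2 subunits in the table, Mpc2 was at 4.83 RPKM in CM, against 1.35 RPKM in CP, and Mpc1 at 1.18 RPKM, against 0.211 RPKM, under 2-fold on the log2(RPKM + 1) scale. Of 6 genes of the calcium uniporter, the route by which calcium reaches the matrix, 0 were higher and 1 lower (median -0.20), the lower one being the inhibitory subunit Mcub at 1.47 RPKM in CM, against 4.42 RPKM in CP. Of 9 regulators of mitochondrial genes, 3 were higher and 0 lower (median 0.11). Nrf1, at 3.01 RPKM in CM, against 6.24 RPKM in CP, was lower by under 2-fold on the log2(RPKM + 1) scale. Pprc1 (-0.83), Tfam (-0.65) and Yy1 (-0.29) were lower as well, and Esrra (0.95) and Gabpa (0.11) were higher, each under 2-fold on that scale. The coactivator Ppargc1a stood at 7.40 RPKM in CM, against 0.696 RPKM in CP, Ppargc1b at 14.3 RPKM, against 0.658 RPKM, and the nuclear receptor Esrrg at 11.5 RPKM, against 3.98 RPKM.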

How the data were processed

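Per the labels' protocols, poly(A) RNA was sequenced from 8 libraries, 2 per stage, on an Illumina GAIIx. Reads were aligned with Novoalign 2.07.00 to build mm9, per the submitters' processing notes. Not given in the sources used here are the counter, the annotation, the gene filter and how libraries were merged. Per the file headers, the deposited unit is RPKM, in a single column for each stage. A limma fit had been planned for separate library columns and was not run. Instead, differences were taken as log2 of RPKM with a pseudocount of 1, and differences of at least 2-fold were counted over all 13540 genes.

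Members are all symbols of the form Slc25a plus a number, and all of them could be named, though 1 member is counted but not reported here by itself. They, their carrier groups, the pairs and the lists of other genes were chosen with earlier results of these data known. Of the 47 protein-coding Slc25a genes of GENCODE M21, 38 were in the table, 1 of them under the older symbol Mcart1, and 9 were not analysed here. Values at low levels are multiples of 1 read. The smallest whole numbers of reads that fit all 4 stages (relative tolerance 5e-07) were found for 12258 genes (90.5%) and 33 of 37 members, all but Slc25a3, Slc25a4, Slc25a5 and Slc25a39, and this step was tested on simulated data. Intervals are 95% and cover counting error only. They can be too wide where the true reads are a multiple of these numbers. M21 and RefSeq are on GRCm38, so only neighbours, transcript words of 32 bases and promoters were taken from them. Whether counting used strand is not stated, so overlapping genes cannot be told apart. Promoters of 8 members were not analysed here. Alternatives were pseudocounts of 0.1 and 0.5, a limit of 4-fold, a minimum of 3 RPKM, scaling to a sum of 1000000, quantile normalization, centring on the median of all genes, and sums without Slc25a3, Slc25a4 and Slc25a5. Python 3.11.15, numpy 2.4.6, pandas 2.3.3, scipy 1.17.1 and matplotlib 3.10.9 were used.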

Additional observations from a re-analysis of the deposited data

How the results depend on the processing

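Over the 4 comparisons, 25 differences of single carriers reached 2-fold. All 25 kept their sign under every alternative that gave a value, and 21 stayed at 2-fold or more. Among the other 4 were Slc25a10 in CM against CP (-0.98 when centred), Slc25a4 in CM against CP (0.71 when quantile normalized) and Slc25a5 in CM against ESC (-0.97 when quantile normalized). Of 56 ratios between relatives, 0 changed side of 1 with a pseudocount.

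Counts of members moved as follows. The share of all genes called the same way stands in brackets. With a pseudocount of 0.1, 7 were lower in MES than in ESC (15.5%), 1 was higher (13.95%) and 2 lower (6.96%) in CP than in MES, and 2 were lower in CM than in CP (19.8%). At 0.5, 1 was higher in CP than in MES (11.06%). At a limit of 4-fold, 0 were higher (2.78%) and 1 lower (3.47%) in MES than in ESC. At the same limit, 2 were higher (3.23%) and 0 lower (2.36%) in CM than in CP. In CM against ESC, 2 were higher (8.73%) and 0 lower (7.75%) at this limit. Among genes that reach 3 RPKM, 2 were lower in MES than in ESC (10.8%). With stages scaled to 1000000, 7 were lower in MES than in ESC (13.98%), 1 higher (13.4%) and 1 lower (5.29%) in CP than in MES, and 2 lower in CM than in CP (20.7%). After centring, 0 were lower in CM than in CP (10.3%). The cause was not tested.

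No paired analysis was possible because the table has 1 value per stage and no values of single libraries. Leaving out a library was not run for the same reason. Depth limits few members: 3 had under 50 reads at some stage (Slc25a31, Slc25a35 and Slc25a43).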

Other observations

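Relatives under other symbols were measured as well, for 4 of the 8 listed. Mcart1, now named Slc25a51 and known as the importer of NAD into the matrix, had 7.32, 15.8, 17.4 and 18.5 RPKM over the 4 stages, from ESC to CM. It was 1.02 higher in MES than in ESC on the log2(RPKM + 1) scale and kept that level. The 10 cofactor carriers with an Slc25a symbol had a median of -0.65 in that comparison. Mtch1, an outer membrane relative, stood at 52.02, 75.8, 113 and 66.4 RPKM, with its peak in CP. Ucp2, an uncoupling protein, stood at 20.3, 10.99, 12.3 and 16.5 RPKM and was lowest in MES. Mtch2, an insertase of the outer membrane, varied little, at 7.39, 6.22, 5.11 and 5.79 RPKM.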
